A study of Mus musculus with 7 samples.

Results

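The count rows of Lars2, Gm15564, AA474408, mmu-mir-2134-4, mmu-mir-2134-1 and Mir5105 are described here, 6 of the 34592 rows counted in 7 mouse Group 3 medulloblastomas (G3 MB). The rows were picked by name because several of them stood far lower in tumors with enforced WDR11 expression than in control tumors, and because Gm15564 and AA474408 share sequence with Lars2. The difference between the groups therefore chose several of them, and for all 6 it is given here as a description without a test. All 7 tumors grew from 1 tumorsphere line, #19568, made of mouse cerebellar granule neuron progenitors that carried retroviral Myc. The methods give the marker beside Myc as GFP (Myc-IRES-GFP), while a figure legend gives RFP for this line. By the methods, progenitors for G3 MB came from 7-day-old mice null for both Trp53 and Cdkn2c (Trp53-/- and Cdkn2c-/-). Both groups thus share this genotype, enforced Myc and its fluorescent marker. The cells were infected with lentivirus for human WDR11 under the EF1 promoter with copGFP (WDR11OE, n = 4) or with the same vector without it (control, n = 3), and were implanted into the cortex of CD1-nu/nu mice until these were moribund. The labels list the control tumors with no treatment, while the protocol and the methods name the empty vector. Replicate numbers are names and pair nothing between the groups, and the labels do not tie each tumor to a mouse, so any p measures the spread between these 7 samples.

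Lars2 encodes the mitochondrial leucyl-tRNA synthetase, the nuclear-encoded enzyme that loads leucine onto its tRNAs for translation inside mitochondria. Ribosomal RNA makes up most of a cell's RNA, and its large subunit 28S species is cut from a long precursor made by RNA polymerase I. Copies of 28S fragments are scattered over the genome, and some lie within genes or within hairpins annotated as microRNAs. The letters printed for Lars2, mmu-mir-2134 and Mir5105 are known from 28S rRNA. A 28S entry was not used here, so the resemblance itself was not measured and only the sequence shared among the rows was.

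Lars2 (ENSMUSG00000035202) lies at chr9:123276058-123371782 of NCBIM37, on the plus strand, with 21 exons. Its last exon has 1166 bases, of which 989 follow the coding sequence as 3′ UTR. Within that UTR, a block of 399 bases, chr9:123370909-123371307, matched 49 other places in the genome, 16 of them at over 90% identity. One of these places was in Gm15564 (ENSMUSG00000086324, a non-coding transcript at chr16:35966838-35983316, minus strand), where 167 aligned bases were 97.6% identical and covered the whole of a 71-base exon that 1 of its 3 transcripts has. Another was in AA474408 (ENSMUSG00000073867, a gene of a single exon annotated as protein-coding at chr7:117201501-117204839, minus strand), where 196 aligned positions in the 3′ UTR were 80.1% identical. The longest unbroken run that Lars2 shared with AA474408 was 41 bases, against 77 bases with Gm15564, of which the longest run within its exon was 51 bases. The following 30 bases are printed because all 3 genes hold them without a mismatch, in Lars2 at chr9:123371167-123371196 (plus strand), in Gm15564 at chr16:35981852-35981881 (minus strand) and in AA474408 at chr7:117203222-117203251 (minus strand).
Lars2, Gm15564 and AA474408: aattcaccaagcgttggattgttcacccac

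The 3 small RNA rows are annotated as microRNA hairpins of 56 to 82 bases, and their sequences on NCBIM37 are printed because reads can be shared between near-identical copies. The row of mmu-mir-2134-4 carries a name, a chromosome and a strand in place of an Ensembl identifier and points to chr13:9833715-9833771 (minus strand), while a second hairpin of that name lies at chr9:56071522-56071578 (minus strand, in an intron of C230081A13Rik on the same strand). mmu-mir-2134-1 lies at chr1:169270500-169270555 (minus strand), and Mir5105 at chr5:147072579-147072660 (plus strand), in an intron of Cdk8 on the same strand. Capitals mark a base that differs from the chromosome 9 copy of mmu-mir-2134-4.
mmu-mir-2134-4, chromosome 9: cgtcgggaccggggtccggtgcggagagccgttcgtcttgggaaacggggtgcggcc
mmu-mir-2134-4, chromosome 13: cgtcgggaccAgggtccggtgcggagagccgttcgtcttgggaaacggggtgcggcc
mmu-mir-2134-1, chromosome 1: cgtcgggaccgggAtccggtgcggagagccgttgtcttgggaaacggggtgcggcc
Mir5105, chromosome 5: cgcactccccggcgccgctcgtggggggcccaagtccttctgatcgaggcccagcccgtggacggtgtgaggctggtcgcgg

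Counted from 1 at the 5′ end, the chromosome 13 copy differed by G11A, and mmu-mir-2134-1 differed by G14A and by 1 missing base. The chromosome 9 letters occurred unchanged at 3 places in the genome, and the further rows mmu-mir-2134-2 and mmu-mir-689-2 hold all 57 of them. Mir5105 shared no run longer than 5 bases with the chromosome 9 copy of mmu-mir-2134-4. Lars2 and mmu-mir-2134 were linked by position, since at 6 places in the genome a match to the Lars2 block stood next to a match to the region of mmu-mir-2134-4 on the same strand, and at 4 of them both matches were over 85% identical. The counts do not show how reads that fit several copies were assigned, so a value belongs to its row and not with certainty to its gene.

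Total counts per tumor ranged from 32116095 to 87141305, and levels are given as CPM, a row's counts relative to the library size as scaled by edgeR's TMM. The control and WDR11OE libraries were numbered in separate series, so that series and condition cannot be told apart, and the labels name a TruSeq RNA kit while the methods describe total stranded RNA sequencing. Wdr11 itself, counted on the mouse gene, was at 58.3 to 59.3 CPM in control and 61.0 to 68.9 CPM in WDR11OE tumors (log2 fold change 0.16, adjusted p = 0.0910 by the quasi-likelihood test of edgeR). Of 13 markers of these tumors or their lineage, 8 entered the fit, 1 fell (Myc, log2 fold change −1.40) and the highest was Gabra5 (1.31, adjusted p = 0.497 from the same test). None of the 13 rose in edgeR, against 1 at an unadjusted p under 0.05, 0 in limma voom and 1 in DESeq2. The cerebellar granule lineage gene Atoh1 had 0 counts in every tumor, and the mean of the photoreceptor genes Otx2, Crx and Nrl was at most 0.172 CPM in either group. Of 18 markers of other cells, the muscle genes Acta1, Ckm, Mb and Myh4 rose and the vessel gene Cdh5 fell (log2 fold change −1.02) but not the vessel gene Pecam1 (0.12, adjusted p = 0.496 by the quasi-likelihood test of edgeR), while Hba-a1 had the lowest value (−1.66, adjusted p = 0.305 from the same test). Mb had 0 counts in every control tumor and a mean of 2.52 CPM in WDR11OE tumors. The summed level of these 18 markers overlapped between the groups, at 469 to 1357 CPM in control and 381 to 1046 CPM in WDR11OE tumors. In control replicates 1 to 3 the sum was 1357, 740 and 469 CPM, the reverse of the order of Lars2 given below. That order of the sum depends on the blood genes Hbb-b1 and Hba-a1. Hbb-b1 was at 424, 40.5 and 65.9 CPM and Hba-a1 at 359, 32.1 and 47.3 CPM in the same tumors. The neuron gene Snap25 took the reverse order of Lars2 by itself, at 83.9, 28.6 and 9.04 CPM, and spanned 1.28 to 141 CPM in WDR11OE tumors. The glial gene Gfap did not take it, at 87.1, 170 and 106 CPM in control replicates 1 to 3. The part of other cells in the values of the 6 rows was not tested. In tumor chunks, fewer cells of a type and less RNA per cell cannot be told apart.

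Lars2 was measured at 195, 850 and 1366 CPM in control replicates 1 to 3, and at 11.9, 14.3, 17.4 and 15.0 CPM in WDR11OE replicates 1 to 4. Every control tumor was far above every WDR11OE tumor, but the control tumors also stood far apart from each other. The mean was 804 ± 587 CPM (n = 3, SD) in control and 14.7 ± 2.27 CPM (n = 4, SD) in WDR11OE tumors, which is 54.8-fold apart and −5.78 as log2 fold change. Between control replicates 1 and 3 the level differed 7.01-fold, and only 2.67% of the 17389 tested rows had a wider range over the 3 control tumors, where the median row ranged 1.33-fold. The 4 WDR11OE tumors stayed within 1.46-fold. Without control replicate 3 the log2 fold change of Lars2 was −5.16, and without control replicate 1 it was −6.24.

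Gm15564 had 16.1, 71.1 and 137 CPM in control replicates 1 to 3, and 0.545, 0.574, 0.216 and 0.351 CPM in WDR11OE replicates 1 to 4. Its control tumors took the same order as for Lars2, with replicate 1 lowest and replicate 3 highest, and spanned 8.52-fold, a range that 2.09% of tested rows exceeded. The order alone is not particular to Lars2 and Gm15564. Summed histone genes took it too, at 8034, 11474 and 15938 CPM in control replicates 1 to 3, as did summed rows for small rRNAs, at 130, 153 and 227 CPM. The log2 fold change of Gm15564 was −7.42, the second lowest of all tested rows, and Lars2 was the sixth lowest. Without control replicate 3 the log2 fold change of Gm15564 was −6.66. The WDR11OE values rest on 23, 46, 7 and 32 reads, and the row passed the filter on low counts through its control values. Gm15564 also overlaps exons of Parp9 and Kpna1 on the opposite strand, and the strand setting of the counting is not given in the sources used here.

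AA474408, the third gene with the shared stretch, differed in size from both. It was at 1.86, 2.84 and 2.05 CPM in control replicates 1 to 3, and at 1.85, 1.52, 1.57 and 1.49 CPM in WDR11OE replicates 1 to 4. The groups touched, since the lowest control tumor was only 1.01 times the highest WDR11OE tumor. The log2 fold change was −0.49, which ranked 3026 from the lowest among the tested rows. It rests on 51 to 136 reads a tumor, and its control tumors did not follow the order seen for Lars2.

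**Figure D1:**
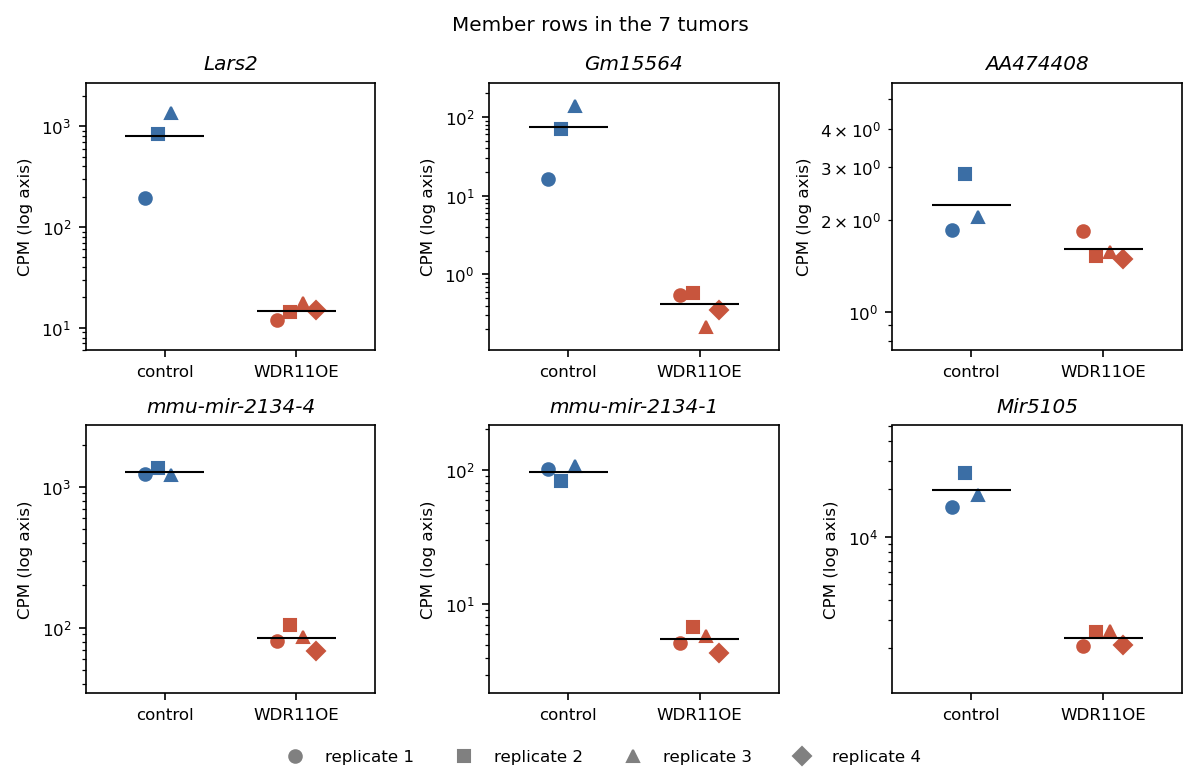
CPM of the 6 rows on log axes (a separate scale for each panel) in control (blue, n = 3) and WDR11OE tumors (red, n = 4), with a marker for each replicate and a line at the group mean. Lars2 and Gm15564 spread 7.01-fold and 8.52-fold over the control tumors, mmu-mir-2134-4 spread 1.13-fold, and the groups of AA474408 nearly touch.

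Among the small RNA rows, mmu-mir-2134-4 was measured at 1233, 1365 and 1207 CPM in control replicates 1 to 3, and at 81.0, 105, 86.8 and 68.5 CPM in WDR11OE replicates 1 to 4. Its control tumors lay within 1.13-fold of each other, unlike those of Lars2, and 83.9% of tested rows had a wider range over the same tumors. The mean was 1268 ± 84.4 CPM (n = 3, SD) in control and 85.3 ± 15.1 CPM (n = 4, SD) in WDR11OE tumors, and the log2 fold change was −3.89. The near copy mmu-mir-2134-1 was at 100, 82.1 and 107 CPM in control replicates 1 to 3 and at 5.12, 6.75, 5.82 and 4.35 CPM in WDR11OE replicates 1 to 4. Its log2 fold change of −4.13 was close to that of mmu-mir-2134-4, although it rests on far fewer reads.

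Mir5105 took the most reads of the 6 rows. It was at 15326, 25088 and 18334 CPM in control replicates 1 to 3, and at 2060, 2500, 2547 and 2077 CPM in WDR11OE replicates 1 to 4. The groups did not overlap, with the lowest control tumor 6.02 times the highest WDR11OE tumor, and the log2 fold change was −3.09. Its control tumors spanned 1.64-fold, and 30.3% of tested rows had a wider range over the same tumors. Of all counts, Mir5105 alone held 1.56% to 2.54% in the control tumors and 0.206% to 0.257% in the WDR11OE tumors. For all 6 rows together these shares were 1.71% to 2.78% and 0.216% to 0.269%.

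Every WDR11OE tumor was below every control tumor in 6 of the 6 rows, as it was in 19.1% of all tested rows, and the log2 fold change was at or under −1 in 5 of the 6, as in 5.16% of all tested rows. Both counts follow largely from how the rows were chosen. AA474408 was picked for its shared sequence, and its place in the first count rests on 1.86 CPM in control replicate 1 against 1.85 CPM in WDR11OE replicate 1. Since exon GC content can affect read counts and differs among the rows, they were set beside tested rows within 2 percentage points of their own GC content. For Lars2, with 51.2% GC in its exons, the median log2 fold change of 3682 such rows was 0.00, and 1 of them was as low as Lars2. For mmu-mir-2134-4, whose row points to a hairpin of 71.9% GC, only 19 rows were comparable, with a median of 0.06, and 1 of them was as low. That row was Mir5102, which lies beside a match to the Lars2 block, as described below. For Mir5105, at 74.4% GC, 6 rows were comparable, with a median of −0.12. None of these was as low as Mir5105. The lowest, at −2.33, was mmu-mir-689-2, which holds the 57 bases of the chromosome 9 copy of mmu-mir-2134-4.

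**Figure D2:**
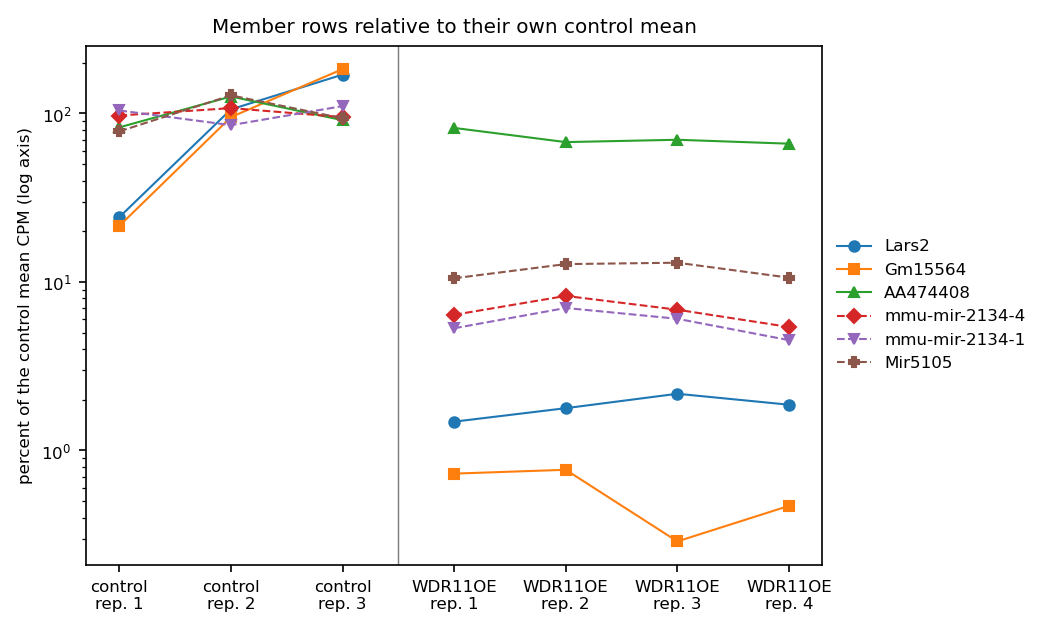
Each row in each of the 7 tumors as a percentage of that row's control mean in CPM, on a log axis. Lines only link the values of one row within a group, and tumors of a group have no order. Lars2 and Gm15564 are both lowest in control replicate 1 and highest in control replicate 3, the small RNA rows stay near their mean in the 3 control tumors, and AA474408 remains near the control level in the WDR11OE tumors.

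How the rows varied together was read from ratios of counts within a tumor, which do not depend on library size and are not scaled to length. Lars2 had 12.1, 12.0 and 9.97 counts for each Gm15564 count in control replicates 1 to 3, a ratio that held within 1.22-fold while each of them spanned at least 7.01-fold. In WDR11OE replicates 1 to 4 the same ratio was 21.9, 24.96, 80.9 and 42.8, higher in each of the 4 than in any control tumor. The highest of these rests on the tumor with 7 Gm15564 reads.

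The ratio of mmu-mir-2134-4 to mmu-mir-2134-1 was 12.3, 16.6 and 11.3 in control replicates 1 to 3 and 15.8, 15.5, 14.9 and 15.8 in WDR11OE replicates 1 to 4. The groups overlapped, and the ratio of the near-identical hairpins spanned 1.47-fold over all 7 tumors. That whole span lay in the control tumors, where the rows alone spanned 1.13-fold and 1.30-fold. There mmu-mir-2134-4 was highest in replicate 2 and lowest in replicate 3, and mmu-mir-2134-1 took the opposite order. In WDR11OE tumors the ratio spanned 1.06-fold, while the rows spanned 1.53-fold and 1.55-fold. Mir5105 had 12.4, 18.4 and 15.2 counts for each mmu-mir-2134-4 count in control replicates 1 to 3 and 25.4, 23.8, 29.3 and 30.3 in WDR11OE replicates 1 to 4. Here the groups separated, since Mir5105 differed less between them than mmu-mir-2134-4 did.

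Lars2 did not keep a proportion to the small RNA rows in the control tumors. Its ratio to mmu-mir-2134-4 was 0.158, 0.623 and 1.13 in control replicates 1 to 3, and 0.147, 0.137, 0.201 and 0.219 in WDR11OE replicates 1 to 4. Control replicate 1 thus lay among the WDR11OE tumors, and control replicates 2 and 3 lay above all of them. In WDR11OE tumors this ratio spanned 1.603-fold, less than the 3.70-fold of Lars2 to Gm15564, and over all 7 tumors the spans were alike, at 8.28-fold and 8.11-fold. The even ratio of Lars2 to Gm15564 thus held over the 3 control tumors and not across the groups. With fewer than 6 tumors in each group, no correlation was computed.

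**Figure D3:**
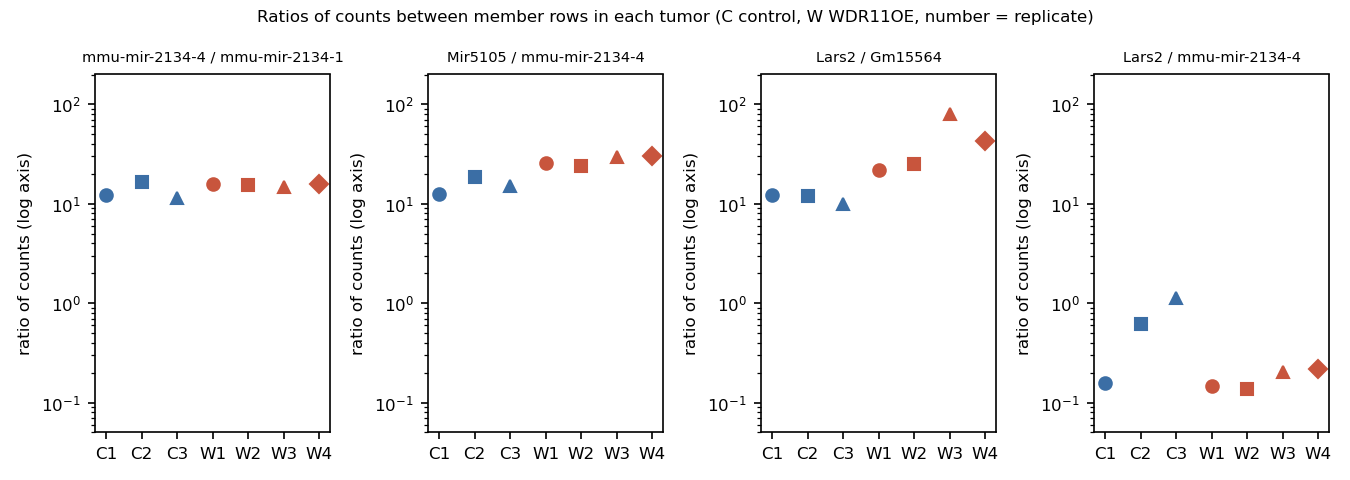
Ratios of counts between pairs of rows in control replicates 1 to 3 (C1 to C3, blue) and WDR11OE replicates 1 to 4 (W1 to W4, red), on one log scale for all panels. The ratio of the mmu-mir-2134 pair spans 1.47-fold in control tumors and 1.06-fold in WDR11OE tumors. Lars2 to Gm15564 stays within 1.22-fold in control tumors and is higher in each WDR11OE tumor, and Lars2 to mmu-mir-2134-4 runs from 0.158 to 1.13 in control tumors.

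Across all tested rows, the profile over the 7 tumors nearest to that of Lars2 was that of Col6a4, a collagen VI chain, at a root mean square distance of 0.60 on the centred log2 CPM scale. Mir5102 followed at 0.62, then Gm15662 at 0.77, Gm12563 at 0.81 and Gm12190 at 0.89, all with a prior count of 2. Of the 6 rows, Gm15564 stood at 0.94 from Lars2, mmu-mir-2134-1 at 1.03, mmu-mir-2134-4 at 1.09, Mir5105 at 1.34 and AA474408 at 2.55. Mir5102, a small RNA row, was at 5.67, 9.51 and 15.3 CPM in control replicates 1 to 3. In WDR11OE replicates 1 to 4 it was near 0, at 0.0474, 0.225, 0.123 and 0.120 CPM. It has the control order of Lars2, but it is named for its likeness to Lars2 in these same tumors, so that order is no separate result. Lars2 had 34.4, 89.3 and 89.5 counts for each Mir5102 count in control replicates 1 to 3, and 63.8 to 251.5 in WDR11OE tumors. The WDR11OE ratios rest on very few Mir5102 reads. The highest is from WDR11OE replicate 1, where Mir5102 was at 0.0474 CPM and 1 read equals 0.0237 CPM. The hairpin of Mir5102 on chromosome 7 ends 22 bases before a match to the Lars2 block of 104 aligned bases and 96.2% identity, on the same strand. None of the 5 rows held a match to the block or the hairpins within its own span. Nearest to mmu-mir-2134-4 were mmu-mir-2134-1 at 0.19 and then, outside the 6 rows, AI606473 at 0.34, Gm12190 at 0.41, the matrix glycoprotein gene Emilin3 at 0.42 and the 5S rRNA rows n-R5s134 and n-R5s105 at 0.45 and 0.47. Mir5105 stood at 0.46. The prior count draws rows near 0 together, so a small distance does not mean a like fold, and Gm12190, at 1.18 CPM in control and 0.0136 CPM in WDR11OE tumors, and AI606473, at 1.52 and 0.0525 CPM, had log2 fold changes of −6.33 and −4.92 against −3.89 for mmu-mir-2134-4.

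Outside the 6 rows, 3 rows shared a run of at least 25 bases with the Lars2 block or with a hairpin in their exons, on either strand. AC163703.1 had 0 counts in every tumor. mmu-mir-2134-2, whose letters equal the chromosome 9 copy of mmu-mir-2134-4, had a mean of only 0.362 CPM in control and 0.00904 CPM in WDR11OE tumors and did not enter the fit. mmu-mir-689-2 was tested and fell, from 3069, 3701 and 2556 CPM in control replicates 1 to 3 to 615, 820, 616 and 418 CPM in WDR11OE replicates 1 to 4 (log2 fold change −2.33, SE 0.24, adjusted p = 0.00108 by the quasi-likelihood test of edgeR). It had 2.12 to 2.71 counts for each mmu-mir-2134-4 count in control and 6.10 to 7.83 in WDR11OE tumors, so it differed less between the groups than mmu-mir-2134-4, although its hairpin on chromosome 16 has the same 57 bases as the chromosome 9 copy. The rows named mir-2132 to mir-2146 counted 4 besides the 6, of which 2 had no count and none was tested.

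The 28S rRNA is one of several ribosomal RNAs, and rows for the 5S species, which RNA polymerase III makes, were also counted. Of 183 rows for 5S and other small rRNAs, 82 had no count in any tumor and 34 were tested. Of these, 22 fell and none rose at an adjusted p under 0.05, with a median log2 fold change of −1.77, where 15.8% of all tested rows fell, 18.1% rose and the median was 0.08. None rose by limma voom, by DESeq2 or at an unadjusted p under 0.05 either. The lowest was n-R5s134, from 1.81 ± 0.546 CPM (n = 3, SD) in control to 0.152 ± 0.0469 CPM (n = 4, SD) in WDR11OE tumors (log2 fold change −3.57, adjusted p = 0.00108 from the same test), and the highest was n-R5s200 (0.29, adjusted p = 0.630). These rows are near-identical copies among which reads can be split, their levels were low, and rows can enter the fit through the control tumors alone. When 1 CPM was asked of at least 3 tumors, 17 fell, and without a filter 25 did. The summed level of the 183 rows was 130 to 227 CPM in control and 61.5 to 111 CPM in WDR11OE tumors, without overlap.

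**Figure D4:**
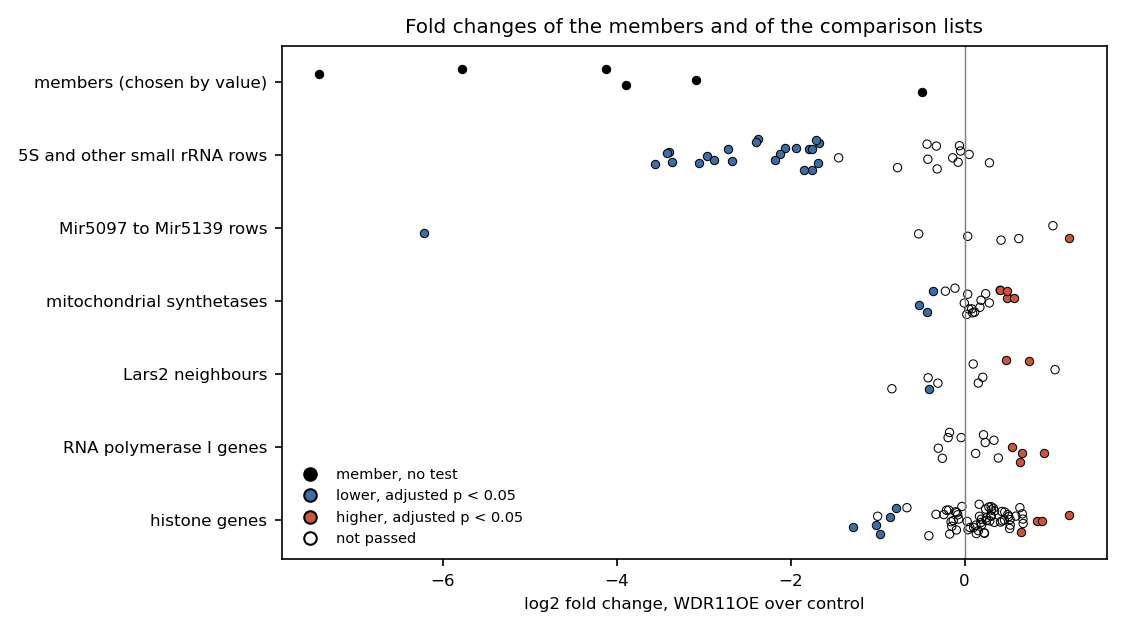
Log2 fold change of WDR11OE over control for the 6 rows (black, no test) and for the tested rows of 6 lists, filled blue or red where the adjusted p was under 0.05. Small rRNA rows reach from −3.57 to 0.29, Mir5102 stands alone at −6.22, and the mitochondrial synthetases lie between −0.53 and 0.57.

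The ribosomal RNAs of the mitochondrion, whose ribosomes use the leucyl-tRNA that Lars2 makes, were set beside Lars2 with its cytosolic counterpart. mt-Rnr1, the small subunit rRNA, fell from 5346 ± 237 CPM (n = 3, SD) to 1753 ± 173 CPM (n = 4, SD), which is −1.61 as log2 fold change (adjusted p = 0.000917 by the quasi-likelihood test of edgeR). mt-Rnr2, the large subunit rRNA, was at 29808 ± 3884 CPM in control and 18217 ± 2347 CPM in WDR11OE tumors (log2 fold change −0.71, adjusted p = 0.0819 from the same test). Lars, the cytosolic leucyl-tRNA synthetase, rose (log2 fold change 0.51, adjusted p = 0.0272 from the same test). mt-Tl1 and mt-Tl2, the mitochondrial leucine tRNAs, had too few reads to be tested. Mir5105 had 0.455 to 0.840 counts for each mt-Rnr2 count in control and 0.113 to 0.138 in WDR11OE tumors, so it was lower relative to that rRNA as well.

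The other genes that charge tRNAs in mitochondria did not share the size of the Lars2 difference. Of 21 such genes, all tested, 3 fell and 4 rose, against 15.8% and 18.1% of all tested rows. Their fold changes lay between −0.53 for Sars2, the seryl-tRNA synthetase (adjusted p = 0.0235 by the quasi-likelihood test of edgeR), and 0.57 for Rars2, the arginyl-tRNA synthetase (adjusted p = 0.00255), with a median of 0.09. Per length, Lars2 was at 50.2, 219 and 352 RPKM in control replicates 1 to 3, and at 3.07, 3.69, 4.49 and 3.87 RPKM in WDR11OE replicates 1 to 4. Its control mean was the highest of the 22 genes, above the 92.2 RPKM of Kars, the lysyl enzyme that also serves the cytosol and was named after its value was seen. In control replicate 1, however, Lars2 lay below Kars at 82.2 RPKM and Gars at 76.5 RPKM. In WDR11OE tumors Lars2 ranked 20 of 22, below the median of 8.47 RPKM of the others but within their range of 1.96 to 93.9 RPKM. In control tumors the median of the others was 7.49 RPKM.

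**Figure D5:**
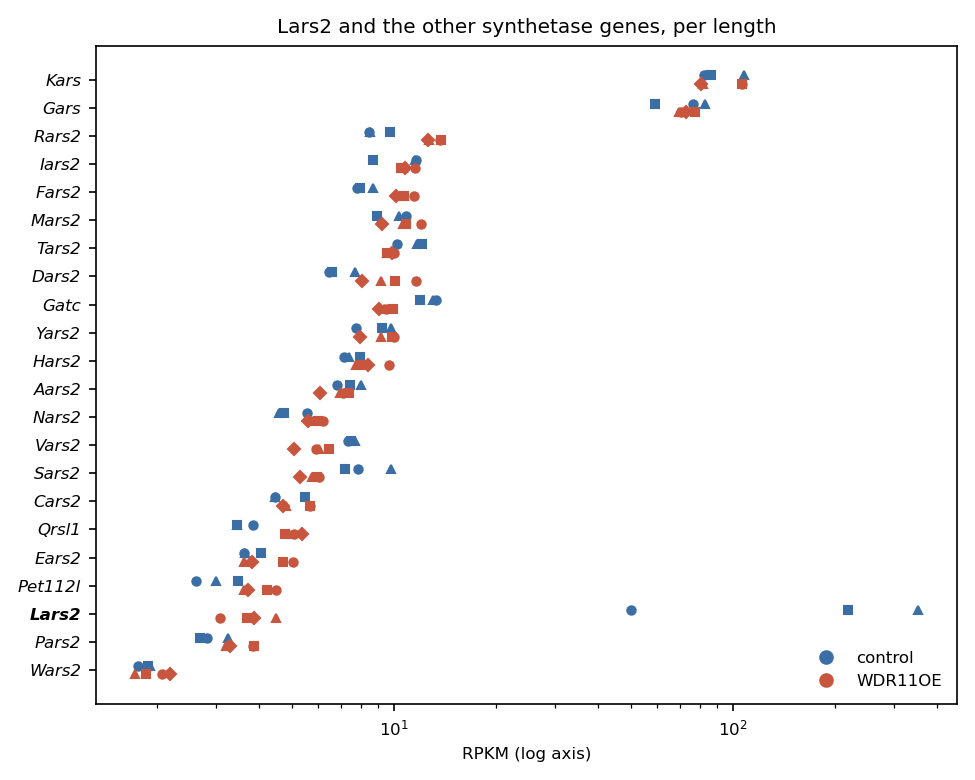
RPKM on a log axis of Lars2 (bold) and 21 other genes for charging mitochondrial tRNAs in control (blue) and WDR11OE tumors (red), 1 marker for each tumor. Lars2 lies between 50.2 and 352 RPKM in control tumors and between 3.07 and 4.49 RPKM in WDR11OE tumors, where the values of Pars2 and Pet112l are found too.

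Genes beside Lars2 on chromosome 9 did not differ by a like amount. Of the 5 nearest tested protein-coding genes on each side, 1 fell and 2 rose, beside 15.8% and 18.1% of all tested rows. Zdhhc3 fell (log2 fold change −0.41, adjusted p = 0.00395 by the quasi-likelihood test of edgeR). Sacm1l rose by 0.48 on the log2 scale (adjusted p = 0.00179 from the same test) and Lztfl1 by 0.75 (adjusted p = 0.00119). The lowest value was that of Tmem158, at −0.84 (adjusted p = 0.0936), and the highest that of Slc6a20a, at 1.04 (adjusted p = 0.539).

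The machinery that makes the 28S precursor was taken from 15 genes of RNA polymerase I and its factors, of which 14 were tested under these names, with 4 higher and 0 lower, where 18.1% and 15.8% of all tested rows were. The promoter factor genes Taf1d and Taf1b and the polymerase subunit genes Twistnb and Polr1e rose, with log2 fold changes of 0.91, 0.66, 0.63 and 0.55 (adjusted p = 0.00286, 0.00574, 0.00151 and 0.0219 by the quasi-likelihood test of edgeR). None fell in edgeR or limma voom, against 1 in DESeq2 and 3 at an unadjusted p under 0.05. The lowest was Ubtf, which encodes the upstream binding factor, at −0.30 (adjusted p = 0.0612 by the quasi-likelihood test of edgeR).

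RNAs that carry no poly(A) tail were set beside the small RNA rows, which are annotated as microRNA hairpins. The counts do not show whether the RNA read in those rows had a tail. Of 17 names, 6 were found and tested, and 4 rose, where 18.1% of all tested rows did, with log2 fold changes of 0.98 for Scarna10, 0.95 for Rnu73b, 0.66 for Scarna13 and 0.61 for Scarna2 (adjusted p = 0.00279, 0.0102, 0.00242 and 0.0468 by the quasi-likelihood test of edgeR). None fell by edgeR, limma voom or DESeq2, nor at an unadjusted p under 0.05, and the lowest was Scarna6 at 0.21 (adjusted p = 0.360). Rows besides those 6, for small nuclear and other RNAs without such a tail, were chosen after their values were seen and went both ways. U5 fell (log2 fold change −3.13, adjusted p = 0.0205 in the same test), from 64.7, 6.94 and 134 CPM in control replicates 1 to 3 to 5.68 to 8.95 CPM in WDR11OE tumors, so that control replicate 2 lay among the WDR11OE tumors. U4 and U2 fell as well (−1.43 and −0.78, adjusted p = 0.00147 and 0.00544), and U6 rose (0.58, adjusted p = 0.0338). U1 (−0.36, adjusted p = 0.1502), 7SK (0.64, adjusted p = 0.151) and RNase_MRP (−0.10, adjusted p = 0.782) did not pass. 7SK and RNase_MRP are the RNAs that the 17 names give as Rn7sk and Rmrp. They are missing from the 6 only because their rows carry other names. Of 67 tested histone genes, 5 fell and 4 rose, a smaller share than the 15.8% and 18.1% of all tested rows, and leaving out 1 tumor moved these counts between 1 and 7 and between 1 and 13. They ranged from Hist1h2al at −1.28 (adjusted p = 0.0340) to Hist1h2bb at 1.21 (adjusted p = 0.00644). Of the 36 other rows named Mir5097 to Mir5139, 7 were tested, and Mir5102 fell (log2 fold change −6.22, adjusted p = 0.000917 from the same test). Mir5102 was at only 0.0474 to 0.225 CPM in WDR11OE tumors and passed the filter on low counts through its control values. It had also been named above for its likeness to Lars2 in these tumors, so its call is no separate result. Mir5107, at a mean of 0.259 CPM in control and 0.596 CPM in WDR11OE tumors, rose (1.20, adjusted p = 0.0208 from the same test). The call on Mir5107 was lost with no filter, with the 1 CPM filter, in DESeq2, and without control replicate 1, control replicate 2 or WDR11OE replicate 1.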

How the data were processed

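The authors sequenced RNA of 7 tumors, mapped them with StrongArm to NCBIM37.67 and deposited raw counts per gene, taken by HT-seq from GENCODE gene models. Counts were tested in R 4.3.3 with edgeR 4.0.16 (filterByExpr, TMM, quasi-likelihood test, two-sided, Benjamini-Hochberg over 17389 rows), and the fit was tested on simulated data. CPM used no prior count, and log2 CPM a prior count of 2. RPKM divided CPM by annotated exon length. The 6 rows and the lists (mitochondrial synthetases and leucine partners, RNA polymerase I, RNAs without poly(A), small rRNA, histone and microRNA name patterns, Lars2 neighbours, markers) were chosen with earlier results of these data known. Named are the 6 rows, the ends of each list, list genes that passed where 5 or fewer did, and the 5 nearest profiles to Lars2 and mmu-mir-2134-4. Sequences come from the NCBIM37 genome, gene models from GENCODE M1 (33606 rows matched by identifier, 231 by name) and matches from BLAST 2.17.0 (word size 14, E-value limit 1e-05). Alternatives were limma 3.58.1 with voom, DESeq2 1.42.0, other scalings and filters, totals without the 6 rows, and leaving out each tumor. Subtracting the median of rows of like GC content was chosen after seeing the data. Within a group the chi-square per degree of freedom between libraries was at least 21.3, so none was a copy of another.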

Additional observations from a re-analysis of the deposited data

How the results depend on the processing

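The log2 fold changes of the 6 rows kept their sign in every alternative. Over 9 alternatives they ranged from −5.85 to −5.40 for Lars2, −7.51 to −7.01 for Gm15564, −0.77 to −0.46 for AA474408, −3.95 to −3.86 for mmu-mir-2134-4, −4.18 to −4.09 for mmu-mir-2134-1 and −3.15 to −2.97 for Mir5105. Leaving out each tumor in turn moved AA474408 most in proportion, between −0.61 (without control replicate 1) and −0.29 (without control replicate 2), while 5 of the 6 rows stayed at or under −1 each time. For Gm15564 it gave −7.90 to −6.66, for mmu-mir-2134-4 −4.05 to −3.80, for mmu-mir-2134-1 −4.29 to −4.02 and for Mir5105 −3.24 to −2.88.

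Some counts of calls moved, and the cause was not tested. With no filter, 2093 rows rose in place of 3150, 2 rows with shared sequence fell in place of 1, 2 mitochondrial synthetase genes rose in place of 4, and 0 of the Mir5097 to Mir5139 rows rose, as was also so with the filter of 1 CPM and in DESeq2. With library sizes alone, 1 RNA polymerase I gene fell, as in DESeq2, which also gave 2 lower neighbours of Lars2. In limma voom 3 histone genes fell in place of 5. Leaving out each tumor gave 1560 to 2986 higher rows, 1 to 4 lower and 2 to 4 higher mitochondrial synthetase genes, 1 to 2 lower neighbours, 0 to 1 lower RNA polymerase I genes, 1 to 2 lower rows with shared sequence, 1 to 7 lower and 1 to 13 higher histone genes, and 1 to 2 lower and 0 to 1 higher rows among Mir5097 to Mir5139. Of the synthetases, 1 fell without control replicate 3 or WDR11OE replicate 1, and 2 rose without WDR11OE replicate 1 or 2. Small rRNA rows that fell numbered 21 to 24.

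No paired analysis was possible because the replicate numbers only name the tumors. With 3 control tumors, the spread of Lars2 and Gm15564 limits how well their size is known. Per-gene counts do not show which bases of a row the reads covered, nor how reads with several matches were placed.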
